A study of Mus musculus with 6 samples.

Results

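The 10 genes described here are surface and matrix markers of adipose progenitors and fibroblasts, *Pdgfra*, *Pdgfrb*, *Ly6a*, *Cd34*, *Dpp4*, *Pi16*, *Dpt*, *Dcn*, *Thy1* and *Cd24a*, in brown adipose tissue (BAT) of diet-induced obese mice. They were chosen by name as markers of these cells, with earlier results of these data known. The counts set beside shares of all genes are therefore descriptive. All 10 were found by symbol among the 47729 genes quantified in each mouse. BAT was taken from male wild-type C57BL/6J mice, of which 3 received the standard rodent chow that served as the low-fat diet (LFD) and 3 a high-fat diet (HFD) with 45% fat for 4 weeks, from 6 to 10 weeks of age. No mouse carried a transgene, and total RNA depleted of ribosomal RNA was sequenced from each animal separately. Per the study's methods, the sequenced animals of a diet were its fattest, its leanest and 1 in between, so they were picked to span its range of fat mass, and the labels do not tell which replicate number is which.

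Fat depots hold a stroma of mesenchymal cells beside the adipocytes. Some of these cells can divide and become new adipocytes, others mainly lay down collagen and proteoglycans, and the markers of both kinds overlap. PDGFRα, the receptor encoded by *Pdgfra*, is the usual marker of adipose progenitors and fibroblasts, whereas PDGFRβ, encoded by *Pdgfrb*, is also carried by the mural cells that wrap small vessels. DPP4 and PI16 mark progenitors of the connective tissue around and between the lobules of a depot, and SCA-1, CD34, THY1 and CD24 are surface antigens used to sort progenitors by flow cytometry, each of them also found on other cells. Dermatopontin (*Dpt*) and decorin (*Dcn*) are proteins that fibroblasts secrete into the matrix.

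The libraries held between 17156991 and 21603487 rounded counts. The labelled tissue was checked against 8 adipocyte markers. Their summed level in HFD was 5861 to 12392 TPM (a relative transcript abundance that corrects for gene length and depth). In LFD it was 3507 to 12692 TPM, and the median log2 fold change was 1.63. *Adipoq*, *Plin1* and *Fabp4*, which are not specific to brown adipocytes, had log2 fold changes of -1.19, -0.78 and -0.35. *Fabp4* alone was at 8136, 7354 and 2624 TPM in LFD replicates 1 to 3, most of each sum. *Ucp1*, *Cidea*, *Dio2*, *Elovl3* and *Cox8b* were positive, from 1.29 to 3.67. *Ucp1*, the uncoupling protein that defines brown adipocytes, was at 2728, 4021 and 796 TPM in HFD replicates 1 to 3 and at only 443, 11.0 and 76.0 TPM in LFD replicates 1 to 3. In the LFD libraries 8 skeletal muscle markers summed to between 1562 and 10914 TPM, against 6.49 to 160 TPM in HFD. All 8 were lower in HFD at an unadjusted p under 0.05 in edgeR, against 6.62% of all genes. Their median log2 fold change was -6.25. The share of counts on mitochondrially encoded genes ran from 3.87% to 13.8% in LFD and from 8.50% to 22.7% in HFD. LFD replicate 3 had the least mitochondrial RNA and, as given with the results, the highest levels of most of these markers. The part of muscle tissue, mitochondrial RNA or this library in the results was not tested, and values without LFD replicate 3 are given beside the results that it moved by over 1.5 times. In bulk tissue, fewer cells of a type and less RNA per cell cannot be told apart.

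Of the 10 genes, 5 were examined at their RefSeq promoters (GRCm38.p6). The 250 bases before the RefSeq transcription start are shown for 3 of them, *Pdgfra* as the defining progenitor gene and *Dpp4* and *Pi16* as the pair with the largest differences between diets over all 6 mice. They were searched on both strands for the box of TATA-type promoters, spelled TATAAA, for the box bound by nuclear factor Y, spelled CCAAT, for the GC-rich box bound by Sp1, spelled GGGCGG, and for the site bound by AP-1, spelled TGACTCA. Capitals mark a match, and no motif overlaps another in these windows. The sequences lie at chr5:75152001-75152250 on the plus strand (*Pdgfra*), chr2:62412232-62412481 on the minus strand (*Dpp4*) and chr17:29318632-29318881 on the plus strand (*Pi16*). The *Pi16* window lies inside the span that GENCODE gives this gene, since the annotations place its start differently.
Pdgfra: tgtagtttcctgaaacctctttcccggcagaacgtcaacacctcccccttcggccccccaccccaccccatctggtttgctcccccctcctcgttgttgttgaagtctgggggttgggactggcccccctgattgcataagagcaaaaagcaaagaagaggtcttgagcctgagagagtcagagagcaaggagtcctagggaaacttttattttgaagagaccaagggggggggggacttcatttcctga
Dpp4: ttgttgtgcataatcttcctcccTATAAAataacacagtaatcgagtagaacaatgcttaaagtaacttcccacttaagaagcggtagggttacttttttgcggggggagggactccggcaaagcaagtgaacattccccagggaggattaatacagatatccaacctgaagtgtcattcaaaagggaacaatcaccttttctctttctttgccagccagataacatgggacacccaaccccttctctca
Pi16: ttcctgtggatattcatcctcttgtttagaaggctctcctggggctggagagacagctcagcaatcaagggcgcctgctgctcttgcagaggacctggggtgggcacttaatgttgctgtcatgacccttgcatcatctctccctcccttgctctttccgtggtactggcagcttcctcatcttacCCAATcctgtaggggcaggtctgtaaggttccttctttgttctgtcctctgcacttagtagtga
The *Pdgfra* window held no match and had a GC content of 54.4%, near the median of 52.4% over all 32851 promoters. The *Dpp4* window had a lower GC content, 43.6%, and held 1 TATAAA, at bases 227 to 222 before the start. The *Pi16* window held 1 CCAAT, at bases 64 to 60 before the start, and had a GC content of 52.4%. Among all promoters, TATAAA was found in 12.4%, CCAAT in 33.8%, GGGCGG in 32.7% and TGACTCA in 4.46%, so neither match was rare. The windows of *Dpt* and *Cd34* held none of these letters.

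The first question was whether the markers differed in level between the diets. In LFD-fed mice *Dcn* had the highest mean level, 667 ± 270 TPM (SD, n = 3), followed by *Ly6a* with 514 ± 372, *Dpt* with 446 ± 218 and *Cd34* with 283 ± 221. In HFD-fed mice *Ly6a* came first, with 453 ± 237 TPM, ahead of *Dcn* with 203 ± 67.8, *Dpt* with 141 ± 56.3 and *Cd34* with 109 ± 37.8. Neighbours in these orders overlapped between mice. The other 6 markers had lower means, from 16.6 TPM for *Cd24a* to 103 TPM for *Thy1* in LFD and from 12.1 TPM for *Cd24a* to 35.3 TPM for *Pdgfra* in HFD.

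**Figure D1:**
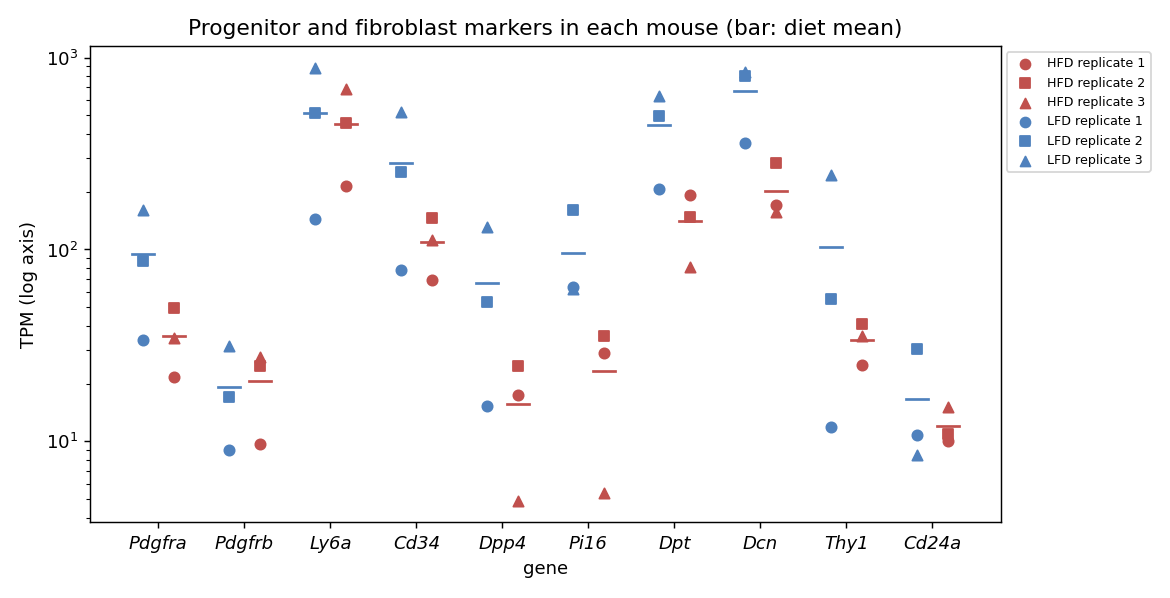
TPM of the 10 markers (log axis) in each of the 3 LFD-fed (blue) and 3 HFD-fed (red) mice, with a bar at the mean of each diet and the marker shape giving the replicate number. The HFD points of *Pi16*, *Dpt* and *Dcn* all sit below the LFD points, while those of *Pdgfrb*, *Ly6a* and *Cd24a* are intermingled with them.

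Of the 10 markers, 8 had a negative log2 fold change (HFD minus LFD), against 54.4% of all genes tested, and 7 were below -1, against 8.52% of all genes. Their median log2 fold change was -1.13, beside -0.05 for the 17668 genes tested. None of the 10 passed the study's thresholds, which are an adjusted p below 0.01 together with a log2 fold change beyond 1.5 in either direction, in edgeR's quasi-likelihood test with Benjamini-Hochberg adjustment, and 0 of all genes did (0%). At an unadjusted p under 0.05, the same test gave 2 of the 10 as lower in HFD, *Pdgfra* and *Dcn*, against 6.62% of all genes, and 0 as higher, against 3.86%. DESeq2 called 0 of the 10 markers and 1.02% of all genes as lower in HFD by these thresholds, and limma on log2(TPM + 1) called 0 of the 10 and 0.00566% of all genes. At an unadjusted p under 0.05 DESeq2 gave 6 of the 10 as lower, against 5.27% of all genes. Both DESeq2 shares are over 29805 genes with no filter on low counts, so they are not on the same set as the edgeR shares. Every marker difference described here missed the adjusted threshold in edgeR. The 2 diets did not overlap in normalized log2 CPM (counts scaled by library size and TMM factor) for 2 of the 10, *Pi16* and *Dcn*, both lower in HFD, as 9.23% of all genes were, and 0 were separated as higher, against 6.72%. On the TPM scale *Dpt* was separated as well, making 3 of 10 against 11.6%, with 0 higher against 1.65%. Without LFD replicate 3 the median of the 10 was -0.67, and the 2 markers under an unadjusted p of 0.05 were then *Dcn* and *Pi16*, both lower, against 9.55% of all genes, and 0 were higher, against 7.7%. Without that mouse the diets did not overlap in normalized log2 CPM for the same 2 as lower, against 18.1%, and for *Pdgfrb* as higher, 1 of 10 against 16.9%.

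**Figure D2:**
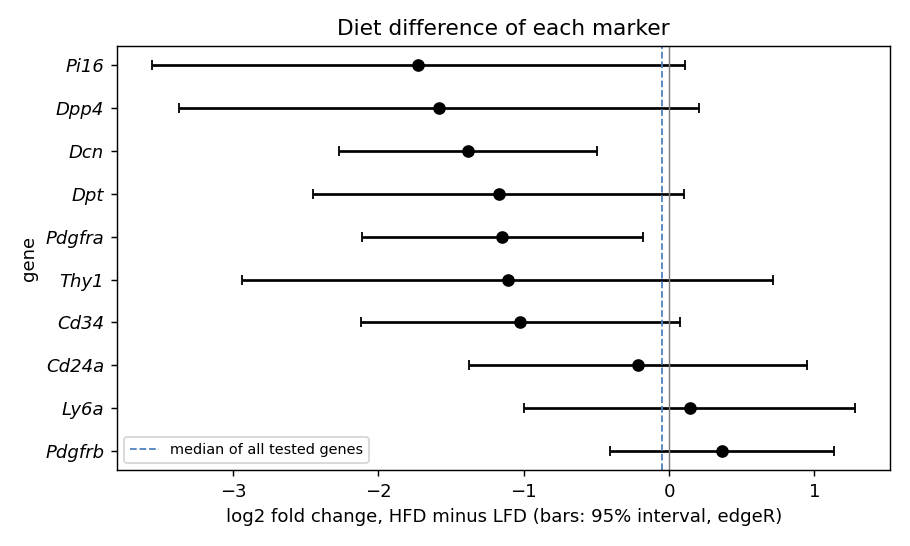
Log2 fold change of each marker (HFD minus LFD, 3 mice each) in edgeR's quasi-likelihood fit, with 95% intervals as bars, a grey line at 0 and a dashed line at the median of all tested genes (-0.05). The intervals of *Dcn* and *Pdgfra* end below 0, and those of the other 8 genes include 0.

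The receptors for platelet-derived growth factor (PDGF) gave opposite signs. *Pdgfra* (ENSMUSG00000029231, chromosome 5, 75152292 to 75198215, plus strand, GRCm38) was at 33.8, 87.6 and 161 TPM in LFD replicates 1 to 3 and at 21.6, 49.6 and 34.7 TPM in HFD replicates 1 to 3. The highest mouse was LFD replicate 3 and the lowest HFD replicate 1, and the diets overlapped through LFD replicate 1. Its log2 fold change was -1.15 ± 0.41 (SE), with a 95% interval of -2.11 to -0.18, and its level was 2.21-fold higher in LFD (edgeR quasi-likelihood with Benjamini-Hochberg adjustment, adjusted p = 0.398, and 0.0265 before adjustment). Over the 20 splits of the 6 mice, an exact two-sided permutation test of log2 CPM gave p = 0.2, where the smallest p that 3 against 3 mice allow is 0.1. *Pdgfra* was lower in HFD in all 3 same-numbered pairs, which was so for 3 of the 10 markers and 21.3% of all genes. Without LFD replicate 3 its log2 fold change was -0.74.

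*Pdgfrb* (chromosome 18) was at 9.03, 17.0 and 31.5 TPM in LFD replicates 1 to 3 and at 9.71, 24.6 and 27.4 TPM in the HFD replicates. Replicate 1 was the lowest mouse of either diet, and the diets covered nearly the same range. The log2 fold change was 0.36 ± 0.32, with a 95% interval of -0.41 to 1.13 (edgeR quasi-likelihood adjusted p = 0.792). Without LFD replicate 3 it was 0.67 and every remaining LFD-fed mouse was below every HFD-fed mouse in normalized CPM, and over all mice left out in turn it ranged from 0.20 to 0.67. In normalized CPM it was the 1 marker that was higher in HFD in all 3 same-numbered pairs, as 21.1% of all genes were. Mural cells also carry this receptor, and 8 mural markers summed to 101 to 236 TPM in HFD and 115 to 249 TPM in LFD. In edgeR 2 of the 8 were higher at an unadjusted p under 0.05, against 3.86% of all genes, and 0 were lower. The median log2 fold change of the 8 was 0.46, and none was at 0 in all mice. Whether mural cells had a part in the *Pdgfrb* values was not tested.

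Within each library the 9 other markers were also set against *Pdgfra* in TPM, a comparison added after the values were seen. The TPM of *Pdgfrb* over that of *Pdgfra* was 0.27, 0.19 and 0.20 in LFD replicates 1 to 3 and 0.45, 0.50 and 0.79 in HFD replicates 1 to 3. The TPM of *Ly6a* over that of *Pdgfra* was 4.24, 5.85 and 5.51 in LFD and 9.95, 9.19 and 19.9 in HFD. Both ratios were higher in every HFD-fed mouse than in any LFD-fed mouse (exact permutation p = 0.1 for each, the smallest possible), while the other 7 of the 9 overlapped. Since 36.5% of all genes had a ratio to *Pdgfra* that was separated in this direction and 1.01% in the other, the 2 of 9 are not above the background. *Cd34* ran most closely parallel to *Pdgfra*, with ratios of 2.30, 2.91 and 3.21 in LFD and 3.23, 2.93 and 3.22 in HFD.

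The PDGF ligands and the proteins that dock on the activated receptors were examined beside the receptors. Of 4 ligand genes, 0 had an unadjusted p under 0.05 in either direction in edgeR, against 6.62% of all genes as lower and 3.86% as higher. The median log2 fold change of the ligands was 0.29, and it was 0.54 without LFD replicate 3, 0.12 without HFD replicate 3, 0.13 without LFD replicate 2 and 0.007 in log2(TPM + 1). *Pdgfc*, whose product acts through PDGFRα, was the lowest, with a log2 fold change of -0.87 (edgeR adjusted p = 0.590). *Pdgfb*, the ligand that endothelial cells use to recruit mural cells, was the highest, with 0.56 (edgeR adjusted p = 0.627). Of 6 docking and adaptor genes 1 was lower at an unadjusted p under 0.05, *Pik3r1*, the regulatory subunit of phosphoinositide 3-kinase. It was at 173, 186 and 62.8 TPM in LFD and at 42.3, 51.7 and 38.5 TPM in HFD, so every HFD-fed mouse was below every LFD-fed mouse in TPM, although not in normalized CPM, with a log2 fold change of -1.71 ± 0.58 (edgeR adjusted p = 0.376). *Grb2*, an adaptor that links the receptors to Ras, was at the other end of that group, with 0.22.

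The genes whose pattern over the 6 mice was closest to *Pdgfra* were *Evc*, *Arhgap44*, *Fst*, *Gfra2* and *Klf4*, out of 15549 genes compared by the root mean square difference of log2 CPM centred on each gene's mean. Their differences from *Pdgfra* were 0.11, 0.13, 0.15, 0.15 and 0.16 log2 units. *Fst* encodes follistatin, a secreted antagonist of activins, and was at 4.75, 13.8 and 26.5 TPM in LFD and 3.17, 9.66 and 5.10 TPM in HFD. *Klf4* encodes a zinc finger transcription factor, and was at 20.9, 50.7 and 81 TPM in LFD and 14.6, 24.1 and 18.3 TPM in HFD. Among the 10 markers *Cd34* was nearest to *Pdgfra*, at 0.19 log2 units. *Pdgfrb* and *Ly6a* were nearest to each other, at 0.33, as were *Dpt* and *Dcn*, at 0.38, while *Pi16* was at least 0.84 and *Cd24a* was at least 0.92 from every other marker.

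With all 6 mice, the largest differences between the diets were those of *Pi16* and *Dpp4*, the markers of interstitial progenitors. Without LFD replicate 3, *Dcn* (-1.35) and *Dpt* (-1.03) exceeded *Dpp4* (-0.93) in size. Without HFD replicate 3, *Dcn* exceeded *Dpp4* (-1.15 against -1.13). Without LFD replicate 2, *Thy1* exceeded *Pi16* (-1.39 against -1.32). *Pi16* (chromosome 17, 29317680 to 29330593, plus strand), a secreted or membrane-anchored peptidase inhibitor, was at 63.5, 161 and 62.5 TPM in LFD replicates 1 to 3 and at 28.8, 35.5 and 5.41 TPM in HFD replicates 1 to 3. Every HFD-fed mouse was below every LFD-fed mouse, and HFD replicate 3 stood far below the rest. In normalized CPM the gap was very narrow, with HFD replicate 1 at 77.2 and LFD replicate 3 at 78.2. Between diets, *Pi16* had a log2 fold change of -1.73 ± 0.77, with a 95% interval of -3.56 to 0.11, a level 3.31-fold higher in LFD (edgeR adjusted p = 0.501, exact permutation p = 0.1). Within HFD the normalized CPM of *Pi16* ranged over 8.35-fold, the widest spread of any marker in that diet, and without HFD replicate 3 the log2 fold change was -1.23. In the fit blocked on replicate number it was -2.05 with an unadjusted p of 0.00536 (edgeR adjusted p = 0.117), which made 3 of the 10 markers lower at an unadjusted p under 0.05, against 8.76% of all genes in that fit, and 0 higher, against 8.75%.

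*Dpp4* (chromosome 2, 62330073 to 62412231, minus strand), a membrane peptidase that cleaves incretins and chemokines, was at 15.2, 53.5 and 131 TPM in LFD and at 17.4, 24.6 and 4.91 TPM in HFD. HFD replicate 3 was again the lowest mouse and LFD replicate 3 the highest, and the diets overlapped through LFD replicate 1. Its log2 fold change was -1.59 ± 0.75, with a 95% interval of -3.37 to 0.20 (edgeR adjusted p = 0.530). Leaving out LFD replicate 3 brought it to -0.93, so this mouse moved the value by more than 1.5 times.

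Of 12 other genes known from interstitial progenitors, 12 had a negative log2 fold change, with a median of -1.26. In edgeR's test 5 of the 12 were lower at an unadjusted p under 0.05, against 6.62% of all genes, 0 were higher, and 0 passed the adjusted thresholds. The diets did not overlap for 4 of the 12, all lower in HFD, against 9.23% of all genes. *Dact2*, a modulator of Wnt and TGF-β signalling, was at the low end. It was at 5.63, 10.5 and 7.69 TPM in LFD and at 1.92, 2.06 and 0.25 TPM in HFD, a log2 fold change of -2.10 ± 0.78 (edgeR adjusted p = 0.418), with all HFD-fed mice below all LFD-fed mice and HFD replicate 3 the lowest. *Anxa3*, an annexin, was at the other end with -0.48 ± 0.48 and overlapping diets. *Cd55*, a complement regulator used with DPP4 to sort these cells, was at 27.6, 90.5 and 99.1 TPM in LFD and at 19.6, 36.9 and 11.8 TPM in HFD, a log2 fold change of -1.26 (edgeR adjusted p = 0.445). The median of the 12 was between -1.65 and -0.90 when 1 mouse was left out. *Cd55* was named after its values were seen.

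A further 13 genes regulate or mark the commitment of progenitors to the adipocyte lineage, and 12 of them passed the filter on low counts. Of these, 3 were lower at an unadjusted p under 0.05, against 6.62% of all genes, and 0 higher, against 3.86%, with a median log2 fold change of -0.60, and 0 passed the adjusted thresholds in edgeR. *Zfp521*, a zinc finger inhibitor of adipogenesis, had the lowest value, -1.10 ± 0.43 (edgeR adjusted p = 0.446). *Icam1*, an adhesion molecule that marks committed preadipocytes and is induced in inflammation, had the highest, 1.08 ± 0.47 (edgeR adjusted p = 0.494). It was at 3.24, 13.5 and 13.8 TPM in LFD and at 7.02, 15.7 and 30.8 TPM in HFD, with overlapping ranges. The median of this list was -0.23 without LFD replicate 1 and -0.27 without LFD replicate 3.

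**Figure D3:**
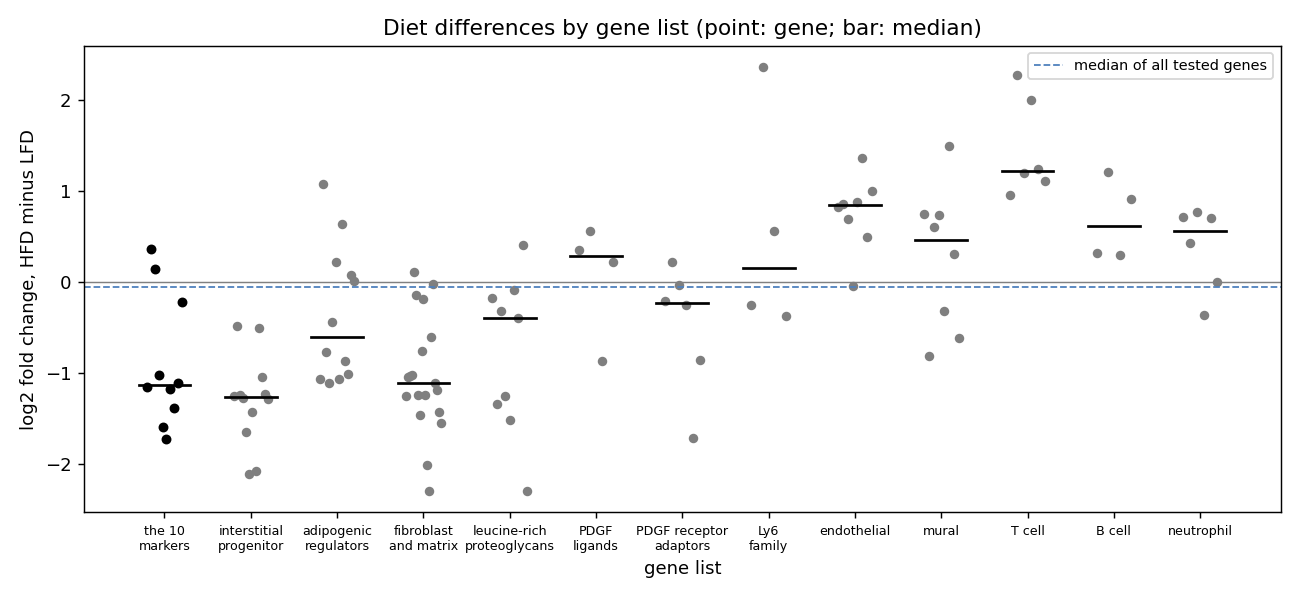
Log2 fold change (HFD minus LFD, 3 mice each) of every tested gene of each list, with the 10 markers in black, a bar at each median and a dashed line at the median of all tested genes. The 12 interstitial progenitor genes all lie below 0, and all 6 tested T cell genes lie above it.

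The 4 surface antigens used for sorting differed in their patterns. *Ly6a*, which encodes SCA-1 and is also made by endothelial cells, was at 143, 512 and 887 TPM in LFD and at 215, 455 and 689 TPM in HFD. Replicate 1 was lowest and replicate 3 highest in either diet, and the ranges overlapped. The log2 fold change was 0.14 ± 0.48, with a 95% interval of -1.0 to 1.28 (edgeR adjusted p = 0.962), so differences of up to about that size in either direction are within its error. The sign was negative without HFD replicate 3 (-0.14) and without LFD replicate 1 (-0.20), and the value was 0.58 without LFD replicate 3.

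Of 8 other genes of the Ly6 family, 4 passed the filter, and their median log2 fold change was 0.16. That median ranged from -0.02 without HFD replicate 3 to 0.83 without LFD replicate 2. It was 0.72 without HFD replicate 1, 0.65 without LFD replicate 3 and 0.27 without LFD replicate 1. The filter was rerun in each of these fits, so the genes behind the median can differ. With all 6 mice and no filter it was 0.42. Neither its sign nor its size was therefore fixed, and a change of genes cannot be told apart from a change of mice. *Ly6c2*, a surface protein of inflammatory monocytes, was the 1 of 4 higher at an unadjusted p under 0.05, against 3.86% of all genes. It was also the 1 without overlap in normalized log2 CPM, against 6.72% of all genes as higher. It was at 6.69, 35.0 and 29.5 TPM in LFD and at 21.8, 93.7 and 242 TPM in HFD, a log2 fold change of 2.36 ± 0.73 (edgeR adjusted p = 0.335), and HFD replicate 1 lay within the LFD range in TPM although not in normalized CPM. *Ly6h* had the lowest value, -0.37. Members of this family are similar in sequence, and reads matching several of them were shared out by RSEM.

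*Cd34*, a sialomucin of progenitors and endothelium, was at 77.8, 255 and 518 TPM in LFD and at 69.7, 145 and 112 TPM in HFD. LFD replicate 3 stood apart as the highest, LFD replicate 1 lay among the HFD values, and the spread in normalized CPM was 3.43-fold in LFD against 1.27-fold in HFD. For *Cd34* the log2 fold change was -1.02 ± 0.46, with a 95% interval of -2.12 to 0.07 (edgeR adjusted p = 0.506), and without LFD replicate 3 it was -0.52. Endothelial cells share *Cd34* and *Ly6a*. The 8 endothelial markers summed to 154 to 676 TPM in HFD and 176 to 384 TPM in LFD. Their median log2 fold change was 0.84, and none was at 0 in all mice. Of these markers, 3 of 8 were higher at an unadjusted p under 0.05 in edgeR, against 3.86% of all genes. Their part in the values of *Cd34* and *Ly6a* was not tested.

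*Thy1*, a membrane glycoprotein of fibroblasts, T cells and neurons, had the widest spread of any marker in 1 diet. It was at 11.9, 55.4 and 243 TPM in LFD and at 25.1, 41.1 and 35.5 TPM in HFD, so the LFD-fed mice included both the lowest and the highest value and differed 10.5-fold in normalized CPM. The log2 fold change of -1.11 ± 0.77 (edgeR adjusted p = 0.707) rested on LFD replicate 3, without which it was 0.24 (edgeR adjusted p = 0.843). T cell markers were low in all mice, with 7 genes summing to 7.50 to 14.1 TPM in HFD. In LFD the sum was 1.56 to 7.43 TPM. The log2 fold change was positive for 6 of 6 tested genes. Of these T cell genes, 3 were higher at an unadjusted p under 0.05 in edgeR, against 3.86% of all genes. Their part in the *Thy1* values was not tested.

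*Cd24a*, a small glycoprotein of early adipose progenitors that B cells and neutrophils also carry, was the least abundant marker. It was at 10.8, 30.5 and 8.47 TPM in LFD and at 10.1, 10.9 and 15.2 TPM in HFD. LFD replicate 2 was the highest and LFD replicate 3 the lowest, and the lowest count was 176. For *Cd24a* the log2 fold change was -0.21 ± 0.49, with a 95% interval of -1.38 to 0.95 (edgeR adjusted p = 0.940), with 0.32 without LFD replicate 2 and -0.59 without LFD replicate 3. Of 6 B cell markers 4 were tested, with a median log2 fold change of 0.62 and sums of 5.69 to 11.1 TPM in HFD and 1.24 to 7.88 TPM in LFD. The 6 neutrophil markers summed to 29.1 to 187 TPM in HFD and 10.9 to 166 TPM in LFD, with a median of 0.57 (1.23 without LFD replicate 3), and neither list had a gene at an unadjusted p under 0.05. Their part in the *Cd24a* values was not tested. Mesothelial cells, which cover some depots, were barely represented, with a sum of 0.59 to 1.14 TPM in HFD and 1.19 to 2.63 TPM in LFD for 5 markers, of which *Upk3b*, *Msln* and *Wt1* were at or near 0 in every mouse.

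Of the 2 secreted matrix proteins, *Dcn* had the smallest p of the 10 markers. *Dcn* (ENSMUSG00000019929, chromosome 10, 97479609 to 97518143, plus strand), which encodes a proteoglycan that binds collagen fibrils and TGF-β, was at 357, 801 and 844 TPM in LFD and at 171, 281 and 156 TPM in HFD. Every HFD-fed mouse was below every LFD-fed mouse. In TPM LFD replicate 1 was well below the other LFD-fed mice, and HFD replicate 3 was the lowest mouse. In normalized CPM the LFD-fed mice were at 708, 939 and 881 and the HFD-fed mice at 380, 381 and 207, with a spread of 1.33-fold within LFD and 1.84-fold within HFD. The log2 fold change was -1.39 ± 0.37, with a 95% interval of -2.27 to -0.50, a level 2.61-fold higher in LFD (edgeR quasi-likelihood unadjusted p = 0.00792 and adjusted p = 0.266, exact permutation p = 0.1). Leaving out 1 mouse kept it between -1.52 and -1.15. DESeq2 gave *Dcn* an adjusted p of 0.00592 at a log2 fold change of -1.37, which passes the p but not the fold threshold. Of the 29805 genes in DESeq2, not filtered on low counts, 1.12% passed that p as lower in HFD.

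*Dpt* (chromosome 1, 164796644 to 164824266, plus strand), which helps to assemble collagen fibrils, was at 206, 498 and 632 TPM in LFD and at 193, 147 and 81.1 TPM in HFD. The diets were separated in TPM by a narrow gap between LFD replicate 1 and HFD replicate 1, and in normalized CPM these 2 mice changed places, at 386 and 397. Between diets, *Dpt* had a log2 fold change of -1.17 ± 0.53, with a 95% interval of -2.45 to 0.10 (edgeR adjusted p = 0.509), and -1.84 without HFD replicate 1.

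Decorin belongs to the small leucine-rich proteoglycans, and of 11 relatives 9 were tested and *Kera* was at 0 in all mice. In edgeR's test 3 of the 9 were lower at an unadjusted p under 0.05, against 6.62% of all genes, and 0 higher, against 3.86%. The diets did not overlap for 2, both lower in HFD, against 9.23%. Their median log2 fold change was -0.40, but it lay between -1.15 (without LFD replicate 1) and -0.51 (without LFD replicate 2) whichever mouse was left out. It was -1.06 without HFD replicate 1, and -0.78 without HFD replicate 2 and also without LFD replicate 3. The filter on low counts was rerun in each of these fits, so the genes behind the median can differ. With all 6 mice and no such filter the median was -0.82, so these shifts cannot be credited to the mice alone. The median was -1.26 with at least 10 counts required in every mouse and -0.20 with the replicate block. *Podn*, podocan, was at 30.3, 48.1 and 15.4 TPM in LFD and at 6.98, 5.92 and 2.65 TPM in HFD. All HFD-fed mice were below all LFD-fed mice, and the log2 fold change was -2.29 ± 0.69 (edgeR adjusted p = 0.320, and 0.0398 with the replicate block). *Chad*, a cartilage proteoglycan present in trace amounts, had the highest value, 0.41 ± 0.63. Biglycan (*Bgn*), the closest relative of decorin, was at 53.7, 362 and 995 TPM in LFD and at 239, 296 and 346 TPM in HFD, with a log2 fold change of -0.17 (edgeR adjusted p = 0.970). Its HFD values lay inside the LFD range, unlike those of *Dcn*, and it was named after its values were seen.

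Among 19 other fibroblast and matrix genes 18 had a negative log2 fold change, with a median of -1.10, 5 lower at an unadjusted p under 0.05, against 6.62% of all genes, and 0 higher, against 3.86%. The diets did not overlap for 3, all lower in HFD, against 9.23%. Their summed level was 5279, 13890 and 34294 TPM in LFD replicates 1 to 3 and 5738, 6864 and 4433 TPM in HFD replicates 1 to 3. LFD replicate 3 stood far above the other 5 mice and LFD replicate 1 was within the HFD range, and without LFD replicate 3 the median of the list was -0.29. *Gsn*, the actin-severing protein gelsolin, which is also made by muscle, had the lowest value. It was at 3115, 2989 and 716 TPM in LFD and at 514, 522 and 241 TPM in HFD, a log2 fold change of -2.30 ± 0.88 (edgeR adjusted p = 0.436). *Col6a1*, a collagen VI chain, had the highest, 0.12 ± 0.53. The fitted median with the replicate block was -0.75.

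**Figure D4:**
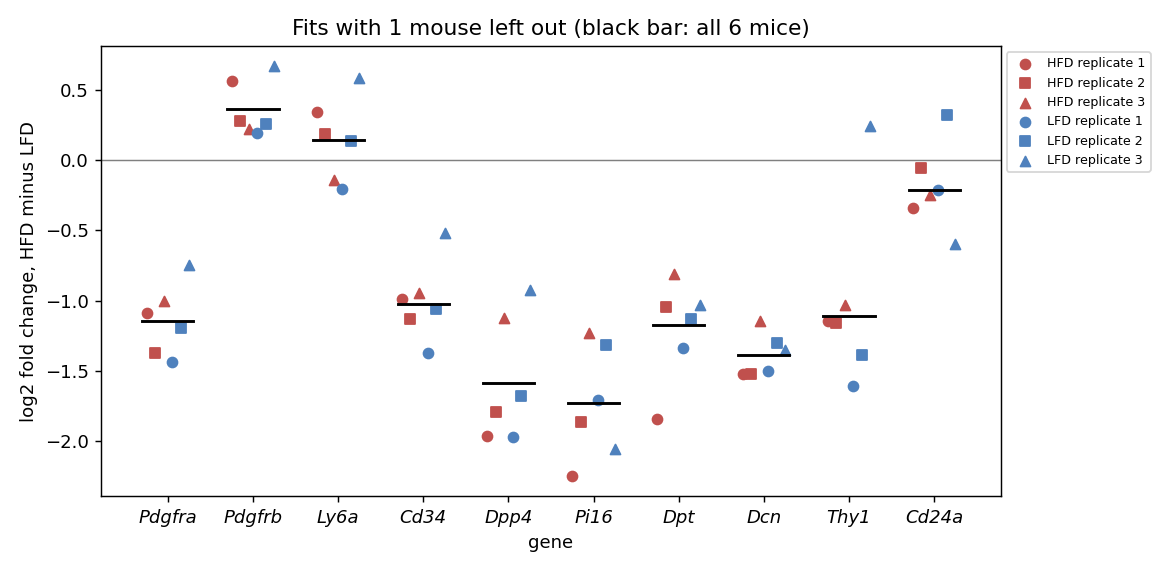
Log2 fold change of each marker (HFD minus LFD) when 1 mouse is left out, with the colour and shape giving the mouse removed and a black bar at the value from all 6 mice. *Dcn* stays between -1.52 and -1.15, while *Thy1* goes from -1.11 to 0.24 when LFD replicate 3 is removed.

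Leaving out each mouse in turn moved the markers to different degrees. *Pdgfra*, *Cd34*, *Dpp4* and *Thy1* moved most without LFD replicate 3, and *Pi16* and *Dpt* moved most when an HFD-fed mouse was left out. The signs of *Ly6a*, *Thy1* and *Cd24a* depended on the mice included. *Pdgfra*, *Cd34*, *Dpp4*, *Pi16*, *Dpt* and *Dcn* had a negative value and *Pdgfrb* a positive value in each of the 6 fits, although none was called in any of them. In log2(TPM + 1), where the median of all genes was lower by 0.13 (-0.18 in place of -0.05), *Dcn* was at -1.48, *Pi16* at -2.01 and *Pdgfrb* at 0.32 relative to that median.

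Some of these genes share their positions with others. In the GENCODE annotation of GRCm38, *Cd34*, *Dpp4*, *Pi16* and *Dpt* each overlap 1 gene on the opposite strand, and *Pdgfra* overlaps 3 genes, 1 of them, *Mir7025*, on its own strand. Whether reads were counted by strand is not given in the sources used here, so reads from such partners cannot be told apart from those of the markers. *Pdgfrb*, *Ly6a*, *Dcn*, *Thy1* and *Cd24a* overlap no other gene.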

How the data were processed

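RNA of BAT was sequenced as single-end reads in 3 mice per diet. Adapters were removed by the authors with Trimmomatic 0.36 and genes quantified with RSEM 1.3.0 on GRCm38 (Ensembl annotation). Per mouse, the authors deposited expected counts, which are not normalized and share out reads matching several genes, TPM, which are scaled by effective length, and the posterior standard deviation of each count. The deposited posterior SD was used only as a check, and was at most 0.565% of the count for any marker.

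Expected counts were rounded and tested in R 4.3.3 with edgeR 4.0.16 (quasi-likelihood, TMM, filter on low counts, Benjamini-Hochberg over 17668 genes), comparing HFD with LFD. Calls needed an adjusted p below 0.01 and a log2 fold change beyond 1.5 in either direction. Log2 CPM used a prior count of 2. Exact permutation tests were two-sided. DESeq2 1.42.0, limma 3.58.1 on log2(TPM + 1) and log2(TPM + 0.1), other normalizations and filters, a replicate block and leaving out each mouse were the alternatives. The filter on low counts was rerun in each fit that left out a mouse, so list medians from those fits can rest on different genes. The fits were tested on simulated data. Depth was 17156991 to 21603487 counts, and the lowest marker count was 176. No library was a repeat of another.

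The 10 markers and all lists were chosen with earlier results of these data known. The lists were interstitial progenitor, adipogenic commitment, fibroblast and matrix, small leucine-rich proteoglycan, PDGF ligand, PDGF receptor adaptor and Ly6 genes. Further lists held markers of endothelial, mural, mesothelial, T, B, neutrophil, skeletal muscle and adipose cells. Named genes were the markers, the lowest and highest gene of each list by log2 fold change, and the 5 genes nearest to *Pdgfra* among those with a mean log2 CPM above 0. Other named genes were chosen after their values were seen. Same-numbered mice of the 2 diets deviated together, with correlations of 0.498, 0.229 and 0.522, against a mean of -0.20 over the other combinations. Deviations from a diet's mean cancel over its mice, so positive values for same-numbered mice go with negative values for the others. The mean of -0.20 is therefore not an independent comparison. All these values come from the same data, and the labels do not say what the numbers share, so a pairing is not established. The main fits and permutation tests did not pair the mice, and the replicate block was an alternative. Promoters and the gene annotation came from RefSeq (GRCm38.p6) and GENCODE M21.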

Additional observations from a re-analysis of the deposited data

How the results depend on the processing

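None of the 10 markers was called under any of the 16 alternatives. Across all genes, 411 passed both thresholds with DESeq2 and 1 with limma on log2(TPM + 1), against 0 with edgeR, and the count was 0 whichever mouse was left out. At an unadjusted p under 0.05, DESeq2 gave 6 of the 10 markers as lower (5.27% of 29805 genes, not filtered on low counts). With edgeR there were 2 (6.62% of the 17668 filtered genes), so the 2 shares are over unlike sets of genes. With the replicate block the log2 fold changes were -1.43 for *Dcn* (edgeR adjusted p = 0.130), -1.06 for *Pdgfra* (0.248), -2.05 for *Pi16* (0.117) and 0.38 for *Pdgfrb* (0.402), and 3 markers had an unadjusted p under 0.05. The block changed no call of a marker, and 184 genes had an adjusted p under 0.05 with it.

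With 1 mouse left out, the median of the 10 markers lay between -1.40 and -0.67. The signs of 3 markers turned in these fits. *Ly6a* ranged from -0.20 to 0.58, being negative without HFD replicate 3 (-0.14) and without LFD replicate 1, *Cd24a* from -0.59 to 0.32, and *Thy1* from -1.61 to 0.24. *Pdgfra* ranged from -1.43 to -0.74, *Cd34* from -1.38 to -0.52, *Dpp4* from -1.97 to -0.93, *Pi16* from -2.25 to -1.23, *Dpt* from -1.84 to -0.81, *Dcn* from -1.52 to -1.15 and *Pdgfrb* from 0.20 to 0.67. The cause of these shifts was not tested. With 3 mice per diet and a biological coefficient of variation of 0.448, even large differences were not called in the main edgeR fit. The 8 skeletal muscle markers had a median log2 fold change of -6.25, and 0 of them were called. The smallest adjusted p of all genes in that fit was 0.170. The printed intervals are per gene and unadjusted, so they do not give the size of difference that could be called. Depth limits the 10 markers less, since counting error at the lowest marker count is 7.54%.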
